A study of Mus musculus with 8 samples.

Results

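The WT map of replication initiation sites (ISs) in CH12 cells holds 25725 ISs on the 19 autosomes. They are all autosomal entries of the WT list, which has 25828 ISs, while the 4 IS lists of the series merge into 136338 regions. CH12 is a mouse B cell lymphoma line that can switch its antibody class in culture, and per the labels the cells were grown with IL4, CD40 and TGF beta stimulation. Of the 8 libraries in 4 groups (WT, Rif1KO, Rif1KO_shLacZ and Rif1KO_shMcm6), the 2 WT libraries carry no engineered allele and no hairpin. They came from asynchronous cultures of separately thawed vials of 1 cell line. The assay reads DNA, so expression markers of B cells were not measured here and the label of the line was not checked against them.

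A replication origin is licensed when MCM helicases are loaded on DNA in G1 phase, and a part of the licensed origins fires in S phase. Mammalian origins have no shared consensus sequence, and they are known to lie often near gene starts, CpG islands and G-rich sequence. Short nascent strand sequencing (SNS-seq) sizes out short new leading strands, which carry an RNA primer at their start, and removes DNA without a primer with lambda exonuclease. The density of an IS, in reads per 1000000 reads inside ISs (RPM), then stands for how often it is used in the population.

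The density is 1 pooled value for both WT libraries, so there is no replicate error, and no test across replicates was possible. In all, 3350255 WT reads lay inside the ISs of the merged WT and Rif1KO table, of which 2493070 were in autosomal WT ISs. An IS had a median of 84 reads (quartiles 68 and 110, range 34 to 4819), a density of 4.65 log2 RPM (quartiles 4.34 and 5.04), and a width of 418 bp (quartiles 351 and 514). Together the ISs covered 0.469% of the autosomes. Ranges in brackets after a share are 95% Wilson intervals over ISs or genes, and those after a read count are exact Poisson intervals. Both cover counting error only, and since the methods name no molecular identifiers, reads need not be independent molecules.

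The stretches below are chosen examples from the strongest ISs, each 160 bases of mm9 outside any annotated exon. The first set is the strongest intergenic and promoter IS with no copy elsewhere in the assembly and with a G-quadruplex motif in its exon-free part. The motif was searched on both strands as 4 runs of at least 3 G (GGG) with 1 to 7 bases of any kind (N) between runs. Such runs can fold into a stacked structure of guanines. Capitals mark the motifs that lie whole in the printed stretch, and each stretch is the minus strand, which is the G-rich one.
Intergenic IS near Rasgrf1, chr9:89776355-89776514: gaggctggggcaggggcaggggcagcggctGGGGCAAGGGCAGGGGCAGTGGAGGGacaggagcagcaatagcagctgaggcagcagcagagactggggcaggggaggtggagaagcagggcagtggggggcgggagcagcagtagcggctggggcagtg
Promoter IS of Myc, chr15:61816781-61816940: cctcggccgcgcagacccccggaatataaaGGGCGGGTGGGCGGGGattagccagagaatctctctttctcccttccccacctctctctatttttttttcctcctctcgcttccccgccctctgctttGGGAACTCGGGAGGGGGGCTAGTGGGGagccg
The whole ISs held 22 and 2 such motifs on that strand. Among the 40 densest ISs, 25 held the motif. A further stretch, from an intron of Cldn10, is shown because its IS is strong and GC-rich and yet holds no motif. It was chosen after its values were seen, is the plus strand, and its capitals mark runs of at least 3 G or 3 C.
Intronic IS of Cldn10, chr14:119211448-119211607: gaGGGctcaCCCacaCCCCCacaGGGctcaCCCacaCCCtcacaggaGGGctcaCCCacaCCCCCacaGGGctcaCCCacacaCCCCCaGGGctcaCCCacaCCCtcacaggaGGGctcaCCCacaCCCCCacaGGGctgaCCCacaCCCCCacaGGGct
Its runs of C are frequent, but they are spaced too widely for the motif. This IS had 670 reads and a GC content of 66.7%.

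Most ISs lay away from genes, and gene starts held more than their share of sequence. Of the ISs, 14049 (54.6%, 54.0 to 55.2) were intergenic and 8398 (32.6%, 32.1 to 33.2) intronic. Another 1286 (4.74 to 5.27%) touched an exon of a protein-coding transcript away from promoters, and 1992 (7.74%, 7.42 to 8.08) lay within 1 kb of a protein-coding transcription start site (TSS) and are called promoter ISs. To compare with the genome, each IS was also placed by its midpoint. Promoter sequence makes up 2.36% of autosomal bases and held 7.03% of midpoints, a ratio of 2.98. The ratio was 1.01 for introns, 0.921 for intergenic sequence and 0.853 for exons. Intergenic ISs lay a median of 57208 bp from the nearest TSS, and 36.7% of them were over 100 kb away.

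**Figure D1:**
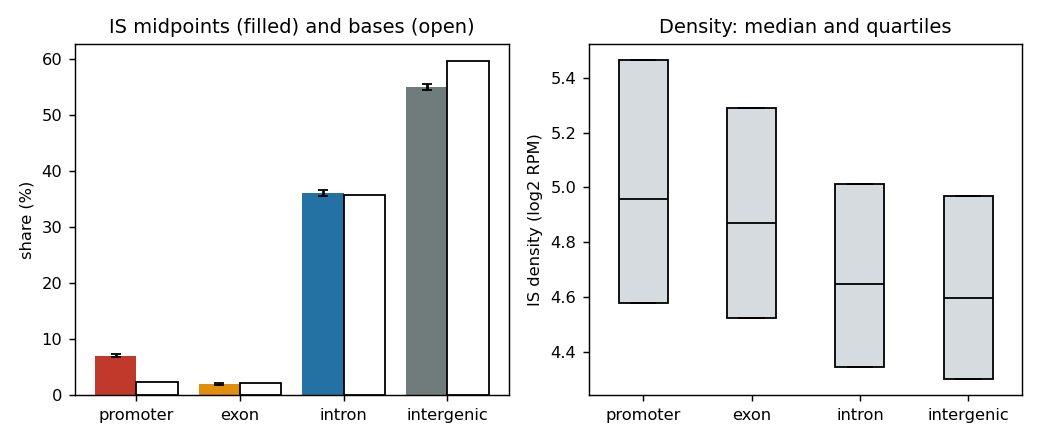
Left, the share of WT IS midpoints (filled bars, error bars are 95% Wilson intervals) and of autosomal bases (open bars) in promoters, exons, introns and intergenic sequence. Right, the density of ISs of each context in log2 RPM, where the line is the median and the box the quartiles over ISs; promoters hold 7.03% of midpoints on 2.36% of bases and have the highest median density, 4.96.

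Promoter ISs were also denser and wider than the others. Their median density was 4.96 log2 RPM, against 4.87 for exon, 4.65 for intronic and 4.60 for intergenic ISs. The difference between promoter and intergenic medians was 0.36 on the log2 scale, with a 95% half-width of 0.0356 over ISs. Width differed as well, with a median of 490 bp at promoters and 408 bp in intergenic sequence, and per kb of merged site the density difference was 0.18. Promoter ISs were 7.74% of the map and held 10.2% of its reads.

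Within promoters ISs were most frequent near the start, in a window that is symmetric around the TSS. Of the 1992, 790 (39.7%) covered a TSS, and 50.1% (47.9 to 52.2) had their midpoint upstream of it. The 250 bp just upstream held 459 midpoints, more than the 290 in the 250 bp just downstream. Farther out the downstream side held more: 277 midpoints from 250 to 500 bp downstream against 232 at that distance upstream, and 195 against 134 in the next 250 bp.

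The GC content of an IS stood above that of its surroundings. The median was 48.7% (quartiles 43.4 and 53.7), against 44.1% in flanks of equal length that start 1 kb away on both sides, and 41.9% over the autosomes. In 19297 ISs the IS was richer in GC than its own flanks, with a median difference of 4.17 percentage points. The excess was greatest at promoters, where the median IS had 59.9% and its flanks 48.2%. Intergenic ISs had a median of 47.1% with flanks at 42.9%, so they too stood above the sequence around them.

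**Figure D2:**
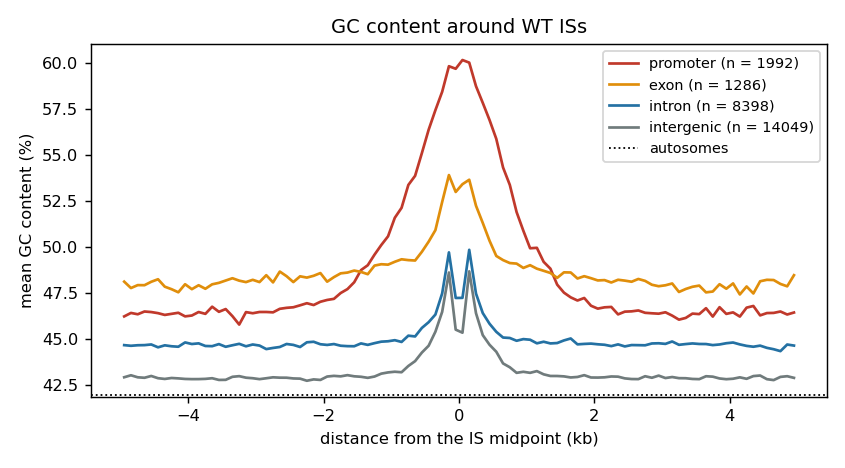
Mean GC content in percent in bins of 100 bp, by distance from the IS midpoint in kb, for WT ISs in each gene context, with the autosomal mean as a dotted line. Promoter ISs show a broad rise that reaches 60.2% just downstream of the midpoint, while intronic and intergenic ISs show a narrow rise with a dip at the midpoint itself, where intergenic ISs average 45.5% in the bin on the left.

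Few ISs were CpG-rich over their own length. A CpG-rich IS was defined by a GC content over 50% and an observed over expected CpG ratio over 0.6. CpG islands, stretches where the CpG dinucleotide has been kept, were not taken from an annotation. The share of autosomal sequence that passes this rule was not computed. There were 1097 CpG-rich ISs (4.26%, 4.02 to 4.52), and 81.4% of them were promoter ISs. Among promoter ISs 44.8% were CpG-rich, against 3.50% of exon, 0.667% of intronic and 0.733% of intergenic ISs. The median CpG ratio was 0.558 at promoters and 0.149 in intergenic sequence, so intergenic ISs were GC-rich against their flanks without being rich in CpG.

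The G-quadruplex motif was common to ISs of all contexts. It was present in 20285 ISs (78.9%, 78.3 to 79.3), against 9.56% (9.31 to 9.82) of the 51450 flanks of equal length. As a wider background, 7.06% of all autosomal tiles of 418 bp held it, and 31.2% of windows of 490 bp centred on each protein-coding TSS. Promoter ISs held it in 83.1%, exon ISs in 79.2%, intronic ISs in 78.0% and intergenic ISs in 78.7%. The share therefore differed little between contexts whose GC content and CpG ratio differed a great deal.

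The motif share of ISs was high at every GC content. Among ISs with under 40% GC, 72.9% (71.4 to 74.4) held the motif, against 2.63% of flanks and 2.42% of tiles in the same GC range. Among ISs with at least 60% GC the share was 82.5% (80.7 to 84.1), against 44.1% of flanks and 37.0% of tiles. The 5440 ISs without a motif had a median GC content of 48.0% and a median density of 4.60 log2 RPM, close to the 48.8% and 4.67 of those with one. Lambda exonuclease digestion was part of how the strands were enriched, and no library of a digested control was analysed here, so its part in the motif share was not tested.

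The motif also had a side. ISs with a motif centre inside them held a median of 1 motif, and an IS with 1 motif has it on 1 strand by definition. Motifs on 1 strand only were held by 97.8% of them, and of these 20039 ISs 10017 had them on the plus strand. Read along the G-rich strand, the motifs lay 5′ of the IS midpoint in 92.5% (92.1 to 92.8) of these ISs, with a median offset of -114.5 bp (quartiles -150.9 and -74.5). At promoters the G-rich strand was the coding strand of the gene in 58.4% (55.9 to 60.8) of 1530 ISs. This was 51.6% (48.1 to 55.1) where the midpoint lay upstream of the TSS and 65.4% (61.9 to 68.7) where it lay downstream.

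**Figure D3:**
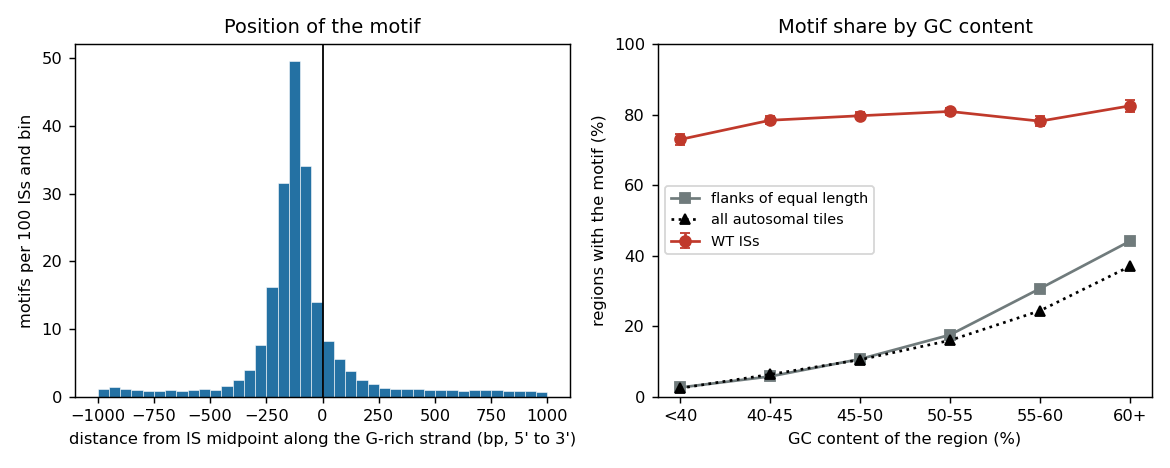
Left, G-quadruplex motifs per 100 ISs in bins of 50 bp by distance from the IS midpoint in bp, each of the 20039 ISs with motifs on 1 strand read along its G-rich strand; the highest bin, 49.7, lies from 150 to 100 bp 5′ of the midpoint. Right, the share of WT ISs, of their flanks and of all autosomal tiles of 418 bp with the motif, by GC content in percent, where error bars are 95% Wilson intervals; ISs stay between 72.9% and 82.5%.

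Denser ISs were nearer to genes and richer in GC. When the ISs were ranked into 5 classes of 5145 by density, the median GC content was 45.9% in the lowest class and 52.3% in the highest. The share of promoter ISs was 3.36% in the lowest and 15.2% in the highest, and the share of intergenic ISs was 61.8% and 45.1%. CpG-rich ISs made up 1.26% and 10.4% of these classes. The motif share moved less, from 75.8% to 81.7%, and the median distance to a TSS was 43415 bp in the lowest class and 21190 bp in the highest. Spearman's rho of density with GC content was 0.275 across the 25725 ISs, which share their libraries, and it was 0.335 for density per kb. Density followed the width of the merged site much more closely (rho 0.829), and the median IS width was 325 bp in the lowest class and 599 bp in the highest. The reads were not concentrated in a few ISs, since the densest 257 merged sites held 4.40% of them.

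The 12 densest ISs were of mixed kinds, and several were sequences with copies elsewhere. The densest, chr17:39980014-39983708, had 4819 reads (exact Poisson 95% interval 4684 to 4957) in 3695 bp, and its neighbour chr17:39984276-39985717 had 1866. The neighbour overlaps AY036118, annotated as a pseudogene, and this stretch of mm9 is known to hold a copy of the ribosomal RNA precursor, a gene present in many copies in the mouse. Per kb of merged site they had 388 and 385 RPM, against a median of 53.0 over all ISs. Parts of 13.4% and 43.2% of their length matched other places in the assembly (at least 90% identity over at least 100 bp).

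Next came a pair of ISs in Sp110, a nuclear body gene, that share 1 merged site of 1420 reads at chr1:87487440-87488921 and chr1:87488991-87489895. Their sequence was covered to 99.7% in the first and over its whole length in the second by other places in the assembly. An IS at the promoter of the predicted gene Gm10800 (chr2:98506344-98507525, 1001 reads) was covered to 91.4%, and one 24491 bp from Ly6c2 (chr15:74915825-74917623, 943 reads) to 87.2%. Copy number beyond the assembly was not measured, and its part in these densities was not tested.

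The beginning of assembled chromosome 11 stood out as well. An IS at chr11:3001042-3002496 had 1258 reads, and another in an intron of Sfi1, a centrosome gene, at chr11:3055628-3056399 had 934. No part of the first matched other places in the assembly, and 24.0% of the second did. Of the 40 densest ISs, 5 lay in the first 100 kb of the assembled sequence of this chromosome, which held 11 ISs in all.

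Other members of the 12 had no copy in the assembly. An intergenic IS 28021 bp from the start of Rasgrf1, an exchange factor for Ras, lay at chr9:89774660-89776592 with 1090 reads and 71.2% GC. A pair at the promoter of Myc, the transcription factor that drives cell growth, shared 1 merged site of 853 reads (797 to 912), at chr15:61816040-61817084 and chr15:61817151-61817868. Their GC content was 58.7% and 56.0%, and they reach over the start and the beginning of the transcript, with a further IS over the gene.

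Of the 40 densest ISs, 26 had no part found elsewhere. Of these 26, 18 held the motif, beside 78.9% of all ISs, and 9 were promoter ISs, beside 7.74%. GC content was over 60% in 17, while 1859 of all 25725 ISs had at least 60%. The CpG ratio was under 0.3 in 15, and its upper quartile over all ISs was 0.270. Promoter examples of the 40 were Aes (821 reads), a Groucho-family corepressor, and Phf23 (599 reads). Examples away from promoters were an intronic IS of Lck, a T cell kinase (537 reads, 56.4% GC, no CpG and no motif), and an IS 3500 bp from the start of the cytokine gene Lif (567 reads, 65.6% GC, 13 motifs). These 4 were named after their values were seen.

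ISs lay close together within site-rich stretches. The nearest other WT IS was a median of 12294 bp away (quartiles 6173 and 21778). It lay within 1 kb for 5.41% of ISs (5.14 to 5.69), within 5 kb for 19.4%, within 10 kb for 41.5% and within 20 kb for 71.0% (70.5 to 71.6). The largest distance was 38335 bp, a value bounded by the authors' filter that kept clustered peaks, so isolated sites are not in the list. Between stretches the gaps were long: 20.2% of the 25706 gaps between neighbours were at least 100 kb, and 302 were at least 1 Mb.

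Counted in 2391 windows of 1 Mb, the median was 9 ISs (quartiles 4 and 15.5), and 205 windows (8.57%, 7.52 to 9.76) had none. The richest 239 windows held 27.5% of ISs. Windows with none had a median of 2 protein-coding genes and 38.8% GC, windows with ISs 6 genes and 42.0%, and the richest 239 windows 12 genes and 45.8%. Across windows, rho of the number of ISs was 0.443 with the number of genes and 0.570 with GC content.

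The richest window, with 61 ISs and 60 genes at 53.6% GC, was chr10:79000001-80000000, and the window beside it, chr10:80000001-81000000, had 56 ISs and 59 genes. They hold genes such as Tcf3, an E protein of B cell development, and Stk11, a kinase gene. High numbers did not need many genes: chr4:139000001-140000000 had 49 ISs and 7 genes, among them Pax7 and Ubr4. The longest gap without an IS was 8.90 Mb at chr7:58250222-67148689, with 0.562% unknown bases and 23 genes, among them the GABA receptor genes Gabra5 and Gabrg3 and the imprinted genes Ube3a and Snrpn. Other gaps of this kind were chr8:3445643-10583123 (7.14 Mb, 53 genes) and chr1:101012500-107681844 (6.67 Mb, 6 genes). A gap of 7.71 Mb on chromosome 7 was 90.8% unknown bases and says nothing about initiation there.

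Autosomes differed in the number of ISs. Chromosome 10 had 18.2 ISs per Mb, chromosome 14 had 17.4, chromosome 15 had 16.3 and chromosome 11 had 15.2, while the other 15 ranged from 7.71 on chromosome 1 to 12.02 on chromosome 5. On these 4 chromosomes the number was high in most windows: the median 1 Mb window held 18, 17, 15.5 and 14 ISs, and chromosome 11 had no empty window, while chromosome 8 had 21.8% empty. Of these 4, chromosome 11 had 13.9 protein-coding genes per Mb and the others 7.83 to 8.24, and chromosome 7, the most gene-rich at 14.6, had 9.67 ISs per Mb.

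Density moved with number. The median density of an IS was 4.75 log2 RPM on chromosomes 10 and 14, 4.78 on chromosome 15 and 4.76 on chromosome 11, and it ranged from 4.52 to 4.68 on the others. Across the 19 autosomes rho of ISs per Mb was 0.814 with median density, 0.442 with genes per Mb and 0.275 with GC content. Peaks were called without an input library, so the amount of DNA per chromosome, which a lymphoma line can gain or lose, was not measured and its part in these numbers was not tested.

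**Figure D4:**
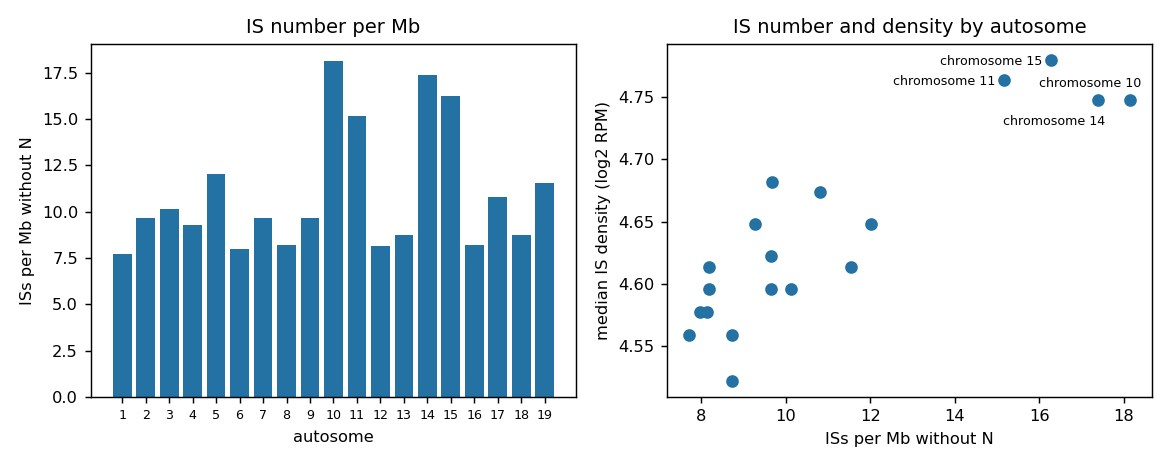
Left, WT ISs per Mb of sequence without unknown bases on each autosome. Right, the median IS density in log2 RPM against ISs per Mb, 1 point per autosome; chromosomes 10, 14, 15 and 11 lie apart at 15.2 to 18.2 ISs per Mb and 4.75 to 4.78 log2 RPM.

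Most genes had no IS. Of 21418 autosomal protein-coding genes, 1965 (9.17%, 8.80 to 9.57) had an IS within 1 kb of a TSS, 5196 (24.3%, 23.7 to 24.8) had one over the gene body, and 74.5% had neither. A gene without an IS is one where none was called in both libraries at this depth and inside a cluster. Genes with a CpG-rich start had a promoter IS in 12.6% (11.9 to 13.3) and other genes in 6.37% (5.94 to 6.82), so a CpG-rich start went with an IS more often, but 749 genes without one also had a promoter IS.

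Longer genes more often held an IS, yet fewer per length. The share with an IS over the body was 7.45% for genes under 10 kb, 23.3% from 10 to 30 kb, 37.1% from 30 to 100 kb, 58.7% from 100 to 300 kb and 74.8% from 300 kb. Per 10 kb of gene body the numbers were 0.213, 0.170, 0.133, 0.119 and 0.0787 in the same order. Inside genes of at least 50 kb, with promoter ISs left out, there were 7188 placements, where an IS in overlapping genes counts once per gene. These placements were spread evenly: the 5 equal parts of the gene from start to end held 20.1%, 20.3%, 19.4%, 20.1% and 20.1% of them.

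**Figure D5:**
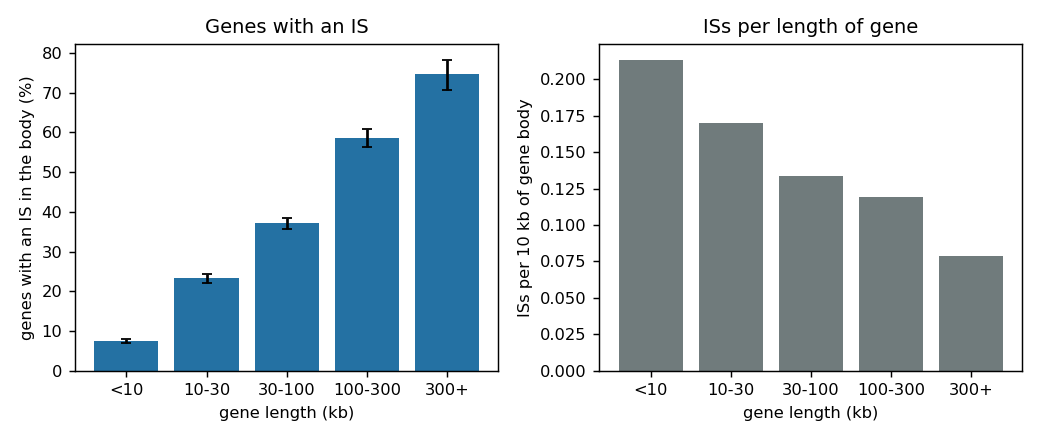
Left, the share of autosomal protein-coding genes with a WT IS over the gene body by gene length in kb, with 95% Wilson intervals. Right, ISs per 10 kb of gene body over all genes of each length class; the share is 7.45% in the shortest class and 74.8% in the longest, while the number per 10 kb is 0.213 and 0.0787.

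Among genes of at least 20 kb, the one with the most ISs per length was Celf5, an RNA-binding protein gene, with 6 ISs in 23.5 kb or 2.56 per 10 kb. Dlg4, which encodes a postsynaptic scaffold, had 7 in 28.4 kb (2.46), and the homeobox gene Onecut3 had 5 in 22.4 kb (2.24). The others of the 10 ranged from 1.54 to 1.90 per 10 kb. They were Pnldc1, Dao (D-amino acid oxidase), Slc12a5 (a potassium chloride cotransporter), Axin2 (a Wnt pathway inhibitor), Setd1b (a histone H3K4 methyltransferase), Trim29 and Wdr8. Over all gene bodies together the number was 0.120 per 10 kb. Celf5 and Onecut3 lie in the site-rich stretch of chromosome 10 given above.

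By number of ISs, the 10 leading genes were long. Gm20388 had 126, but its model spans 4435 kb over many other genes. Gpc5, a glypican gene, had 39 in 1432 kb, and Anks1b had 31 in 1099 kb. Pcdh15, a protocadherin gene of sensory hair cells, and Arfip1 had 26 each. Next were the growth factor receptor gene Fgfr2 (23), Camta1, Fgf14 and Sox5 (22 each) and Ctnna3, an alpha catenin gene (21). The annotation gives Arfip1 and Fgfr2 spans of 1391 and 3009 kb, which take in neighbouring genes, so their numbers count ISs of a region.

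Other genes of like length had none. The longest without an IS were Ptprd, a receptor phosphatase gene (2271 kb), and Cntnap2, a neurexin-family gene (2241 kb). Csmd1 (1643 kb), Fam190a (1203 kb) and Prkg1, a cGMP-dependent kinase gene (1196 kb), followed. The netrin receptor gene Dcc, the neuregulin receptor gene Erbb4, Cdh18, Spag16 and Cntnap5a, of 897 to 1092 kb, completed the 10.

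Genes that define the B lineage were read beside the background of 9.17% for promoters and 24.3% for bodies. Of 24 B cell transcription factor genes 2 had a promoter IS and 12 a body IS (95% interval 31.4 to 68.6%). Their median length was 69.2 kb against 15.5 kb over all genes, and per 10 kb they had 0.121, near the 0.120 of all genes. The promoter ISs were those of Myc and of Ikzf1, a zinc finger factor of lymphocytes. Ebf1, a factor that commits cells to the B lineage, had 6 ISs in 391 kb, and Ikzf3 and Foxp1 had 4 each. Bach2 (347 kb), Runx1 (225 kb) and Pax5 (180 kb), the keeper of B cell identity, had none.

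Of the 22 autosomal genes of the B cell receptor and its signalling 2 had a promoter IS (Malt1 and Pik3cd) and 9 a body IS (95% interval 23.3 to 61.3%), at a median length of 43.9 kb and 0.223 ISs per 10 kb against 0.120 over all genes. The kinase gene Prkcb had 13 in 346 kb, of the 31 ISs of the list. The kinase gene Lyn (135 kb), the phosphatase gene Inpp5d (100.2 kb) and the receptor subunit genes Cd79a and Cd79b had none.

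Of 19 genes of class switching and break repair, 3 had a promoter IS and 9 a body IS (95% interval 27.3 to 68.3%). Over all genes these shares were 9.17% and 24.3%. The listed genes had a median length of 49.5 kb and 0.171 ISs per 10 kb, against 15.5 kb and 0.120 over all genes. Prkdc, the catalytic subunit of DNA-dependent protein kinase, had 6 body ISs. Promoter ISs were, among others, those of Trp53bp1 (5.98 log2 RPM) and Mad2l2 (5.02), whose products limit resection of broken ends. The kinase gene Atm (97.6 kb) and the ubiquitin ligase gene Rnf8 (88.6 kb) had none.

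Genes of replication licensing and firing were near the shares of all genes, 9.17% at promoters and 24.3% in bodies. An IS lay at the promoter in 3 of 31 and in the body in 7 (22.6%, 11.4 to 39.8). Per 10 kb they had 0.105 ISs, against 0.120 over all genes. Promoter ISs were those of the origin recognition complex gene Orc4, the helicase activator gene Gins2 and the ligase gene Lig1. The genes of the helicase subunits Mcm2 to Mcm7 had none, and neither did Orc5 (63.9 kb), the longest member without one. Of 17 housekeeping genes, 1 had a promoter IS (Eef1a1) and 3 a body IS, beside 9.17% and 24.3% of all genes. Their median length was 5.88 kb and they had 0.147 ISs per 10 kb, against 15.5 kb and 0.120 over all genes. The densest body IS was in Polr2a, the gene of the large subunit of RNA polymerase II, at 6.37 log2 RPM. Tbp (28.5 kb) was the longest housekeeping gene without an IS.

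Lists from other tissues were read beside the same 9.17% and 24.3% of all genes. Of 16 T cell genes (median length 22.2 kb, 0.170 ISs per 10 kb) 1 had a promoter IS and 7 a body IS, among them Zap70, Tcf7 and Bcl11b with 2 each, while Themis (215 kb) had none. Of 19 liver genes (median length 11.2 kb, 0.0648 ISs per 10 kb) 0 had a promoter IS and 2 a body IS, among them Ahsg with 1, and Cps1 (108 kb) had none. Of 19 long genes known from neurons 3 had a promoter IS and 15 a body IS, at 0.0518 per 10 kb over a median length of 1478 kb, and of all genes of at least 300 kb 74.8% had a body IS. Pcdh15, Fgf14 and Ctnna3 led this list, and Ptprd, Cntnap2 and Csmd1 were its longest members without an IS.

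Gene families spanned a wide range. Hox genes, the homeobox genes that pattern the body axis, had a promoter IS in 12 of 40 (18.1 to 45.4%), against 9.17% of all genes, and 0.638 ISs per 10 kb of gene body. Their median length was 4.08 kb, and all genes under 10 kb had 0.213 per 10 kb. The Hoxc cluster had 8 ISs in 116 kb, Hoxb 7 in 174 kb, Hoxa 5 in 106 kb and Hoxd 3 in 96.8 kb, or 31.0 to 69.1 per Mb against 10.7 over the autosomes. The clusters were looked at singly after the family's count was known. Promoter ISs were at 5 Hoxc genes (Hoxc4, Hoxc9, Hoxc10, Hoxc11 and Hoxc13), at 5 Hoxa genes, at Hoxb7 and at Hoxd4, and the highest density was 5.97 log2 RPM in Hoxc.

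Histone genes and the receptor families of smell had few or no ISs. Replication-dependent histone genes had 0 of 67 at promoters, with an upper bound of 5.42% on the share, and their bodies are too short for a count of 0 there to set them apart. That bound takes the genes as independent, and neighbours with overlapping promoter windows are not. Olfactory receptor genes had 2 of 1106 (0.181%) at promoters and 7 (0.633%) in bodies, and vomeronasal receptor genes 2 of 327 (0.612%) and 4 (1.22%). These genes are short, with median lengths of 0.53 kb for histone, 0.96 kb for olfactory and 1.09 kb for vomeronasal receptor genes, and of all genes under 10 kb 7.45% had a body IS. Per 10 kb the olfactory receptor genes had 0.0416 ISs and the vomeronasal ones 0.0163, against 0.120 over all genes. Ribosomal protein genes, of which 73 of 85 have a CpG-rich start, had 4 (4.71%, 1.85 to 11.5) at promoters. At promoters, proteasome genes had 1 of 51, MHC genes named H2- 1 of 36, keratin genes 2 of 51, cytochrome P450 genes 3 of 98 and beta-defensin genes 2 of 41. Solute carrier genes (32 of 343, 9.33%) and Zfp zinc finger genes (37 of 362, 10.2%) were near the background of 9.17%. Members of some families are similar in sequence, and reads were kept where they aligned to 1 place, so the part of mappability in these counts was not tested.

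The immunoglobulin loci, the defining loci of a B cell, were set beside their own chromosomes. The heavy chain locus Igh had 2 ISs in the 2694 kb between its outer annotated segments (0.742 per Mb), the denser of them at 6.05 log2 RPM. The kappa locus Igk had 17 in 3171 kb (5.36 per Mb), and the lambda locus Igl had none in 176 kb. Chromosome 12, which carries Igh, had 8.15 ISs per Mb, chromosome 6 with Igk 7.98 and chromosome 16 with Igl 8.19, and Igl is too short for a count of 0 to set it apart. Since rearrangement deletes segments in a B cell, how much of each locus remains in CH12 was not measured here.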

How the data were processed

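SNS-seq reads (single-end) were trimmed by the authors with Trim Galore 0.6.4 and cutadapt 2.6 and aligned to mm9 with Bowtie 1.2.3, keeping unique alignments. Peaks were called per replicate with MACS without input, intersected between replicates, clustered with ClusterScan and kept inside clusters. The deposited WT densities are log2 RPM, 1 value for both replicates, in a table merged with Rif1KO. All linear values were whole multiples of 1 read (tolerance 0.01), so reads were recovered. Other deposited columns give peak numbers and a category of the authors' fold changes, which were not used.

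Sequence came from NCBIM37 (mm9), genes from GENCODE M1. An IS took the first fitting context of promoter, exon, intron and intergenic, by overlap of at least 1 bp. A density is that of the merged site, and 66.7% of WT ISs have a merged site of another width. Python 3.11.15, pandas 2.3.3, scipy 1.17.1, pysam 0.24.0 and blastn 2.17.0 were used, and functions were tested on simulated data. Shares have Wilson intervals and rho is given without p. Named were the 12 densest ISs, the 10 genes with most ISs per 10 kb (at least 20 kb and 4 ISs), with most ISs, and longest without, and list members with most ISs or longest without. The members and lists were chosen with earlier results of these data known. One of the 12 densest ISs and some list members are not reported here.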

Additional observations from a re-analysis of the deposited data

Results flagged for a closer look

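ISs were also listed outside the autosomes, where the comparisons above were not made, and both numbers below come to at least the 3 that a count of 0 allows. The WT list held 100 ISs on the X chromosome, or 0.617 per Mb against 7.71 to 18.2 per Mb on the autosomes, and the merged sites of X held 17869 WT reads (0.533% of those in ISs). It held 3 ISs on mitochondrial DNA, whose merged sites took 16044 reads (0.479%). Mitochondrial DNA is present in many copies per cell and replicates by its own machinery. The amount of X and mitochondrial DNA in these cells was not measured.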

How the results depend on the processing

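Of 37 alternatives to 11 results, 10 stayed within the 95% interval of the value given above, 27 moved past it and 0 changed sign. Promoter ISs were 6.14% of ISs within 500 bp of a TSS, 10.4% within 2 kb, 7.03% by midpoint and 10.5% with all GENCODE genes. Intergenic ISs were 51.7% with all GENCODE genes and 53.7% without chromosomes 10, 15 and 16. Median GC content was 48.2% in 500 bp around the midpoint, 49.4% without the weakest ISs (those up to 4.34 log2 RPM) and 48.9% without those chromosomes. Leaving them out kept chromosomes 11 and 14, which also had many ISs, while chromosome 16 had only 8.19 ISs per Mb. The GC difference was 4.47 points against flanks 5 kb away and 3.89 without promoter ISs. The nearest IS was 12752 bp away between midpoints and 15563 bp without the weakest ISs. The rank correlation of density with GC content was 0.335 per kb and 0.240 without promoter ISs. The promoter minus intergenic difference was 0.18 log2 per kb, 0.42 within 500 bp and 0.30 within 2 kb. Genes with a promoter IS were 7.37% within 500 bp, 12.2% within 2 kb and 8.12% without the weakest ISs, and genes with a body IS 23.2% by midpoint and 21.4% without the weakest ISs. The rank correlation of ISs with genes was 0.375 in windows of 500 kb and 0.484 in windows of 5 Mb. The motif share was 88.8% with spacers of up to 12 bases (flanks 15.2%) and 80.1% without the weakest ISs; its alternatives were chosen after seeing the data. The cause of these moves beyond the changed definition was not tested.

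No paired analysis was possible because each WT density is a single number for both libraries together. Leaving out a WT replicate and a stricter peak threshold were not run, since the lists carry neither replicate values nor peak scores. With 34 to 110 reads in most ISs, weak sites cannot be told from unlisted ones.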

Other observations

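The other IS lists of the series, made by the same steps from other libraries and of other sizes, gave these values for the same measures. The motif share was 77.6% of 33465 autosomal ISs of Rif1KO, 79.1% of 98867 of Rif1KO_shLacZ and 76.5% of 113626 of Rif1KO_shMcm6, beside 78.9% in WT. Promoter ISs were 5.85%, 4.20% and 4.39% of these lists, beside 7.74% in WT, and the median GC content was 46.6%, 44.9% and 44.3%, beside 48.7%. The lists differ in the number and width of their ISs, their depth was not compared here, and the differences were not tested.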
